A study of Mus musculus with 8 samples.

Results

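The 8 genes described here encode carriers, channels and receptors of the pigment organelle and of the cell that makes it: Oca2, Slc45a2, Slc24a4, Tpcn2, Atp7a, Gpr143, Trpm1 and Mc1r. They were taken by symbol from the platform annotation, which paired each with a single probe set, and were 8 of the 22180 genes tested. They were chosen by symbol with their log2 values in the same 3 groups already known. Their changes and p-values are therefore a description of where they stand in the fit across all genes, not independent evidence. Expression was measured on 8 mouse gene arrays of cells sorted from whole skin as positive for green fluorescent protein and negative for p75. P4_WT holds 2 arrays from pups of 4 days, whose sorted cells the labels call melanoblasts. P21_WT holds 2 arrays and P21_KO 4 arrays from mice of 21 days, whose sorted cells the labels call melanocyte stem cells. Both wild-type groups were B-raf +/+ and C-raf +/+, and P21_KO was B-raf fl/fl and C-raf fl/fl. All 3 groups carried TyrCre/° and Z/EG on a mixed background of C57Bl/6 and 129/Sv. Cre is driven by the tyrosinase promoter, and the Z/EG reporter marks cells in which Cre has acted, so the controls were exposed to Cre as well. The labels call the arrays biological replicates. Those of P21_KO replicates 2, 3 and 4 share a number of unstated meaning, so the spread behind each p-value is that of these arrays and may not be that of independent mice.

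Melanin is made in melanosomes, organelles related to lysosomes, and its synthesis by tyrosinase needs copper and a lumen that is not too acidic. Ion carriers and channels of the organelle membrane set that pH, and the loss of several of them gives pale coats and albinism in mice and people. From outside the cell, the receptor Mc1r responds to melanocortin and raises cyclic AMP, which favours the synthesis of black pigment.

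Values are log2 signals from the deposited table, in which 1 unit is a doubling. Apart from readings against the array's median and means of gene lists, they were not compared between probe sets. The median of all probe sets on an array lay between 3.16 and 3.27, and differences near and below it are compressed. Of the labelled lineage, 8 of 8 regulators, Mitf, Sox10 and Kit among them, read above the array's median on all 8 arrays. So did 6 of 6 genes for melanin enzymes and melanosome matrix. Of keratinocyte genes 13 of 14 read above the median on all arrays, and of Schwann cell and glia genes 10 of 11. By a looser rule, 13152 of the 22180 genes read above the median of the whole value set on at least 2 arrays. The share of all genes above the array's median on all 8 arrays was not counted, so these list counts have no like background. From P4_WT to P21_WT the keratinocyte genes had a median change of 0.85, with 10 of 14 higher and 0 called. Of the Schwann cell and glia genes 4 were called higher (Mbp, Mal, Egr2 and Pmp22) and 1 lower (Gap43), with a median of 0.27. These 5 are named after their values were seen, and the part of either list in the changes of the 8 genes was not tested. Braf, 1 of the targeted genes, read 5.99 and 7.20 in P21_WT and 5.66 to 6.57 in P21_KO. Its groups overlapped, and whether its probes lie in the floxed part is not known, so it does not check the genotype. The P4_WT arrays differed from each other in markers of other cells. The mean of 13 hair shaft and root sheath genes was 5.44 in P4_WT replicate 1 and 3.89 in P4_WT replicate 2, where the 6 P21 arrays lay between 2.74 and 2.90. The mean of 12 macrophage, dendritic and T cell genes was 3.08 and 5.35 on these arrays, and 3.07 to 3.47 at P21. For 10 endothelial genes it was 3.38 and 5.37, and 3.10 to 3.40 at P21. In bulk samples, fewer cells of a type and less RNA per cell cannot be told apart.

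The comparison of P21_WT with P4_WT addresses how melanocyte stem cells differ from melanoblasts. Age and the cells that the labels name change together in it, so these cannot be told apart. That also holds where it is called the age comparison. Of the 8 genes, 5 were called lower in P21_WT: Slc24a4, Oca2, Mc1r, Trpm1 and Gpr143. Their mean values were 6.52-fold to 30.9-fold lower. Slc45a2 was 7.45-fold lower without passing the test, and Tpcn2 and Atp7a differed by 1.15-fold and 1.24-fold. The median change of the 8 was -2.84, where that of all genes was 0. By comparison, limma called 1.61% of all genes in this comparison, 0.852% lower and 0.757% higher. The count of 5 became 3 without P21_WT replicate 2 (Mc1r and Trpm1 were lost). It became 2, Oca2 and Slc24a4, when the P21_KO arrays did not contribute to the estimate of the spread. The 2 arrays of each group did not overlap for any of the 8 genes, which was also the case, for 22.1% of all genes in the lower and 21.4% in the higher direction.

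**Figure D1:**
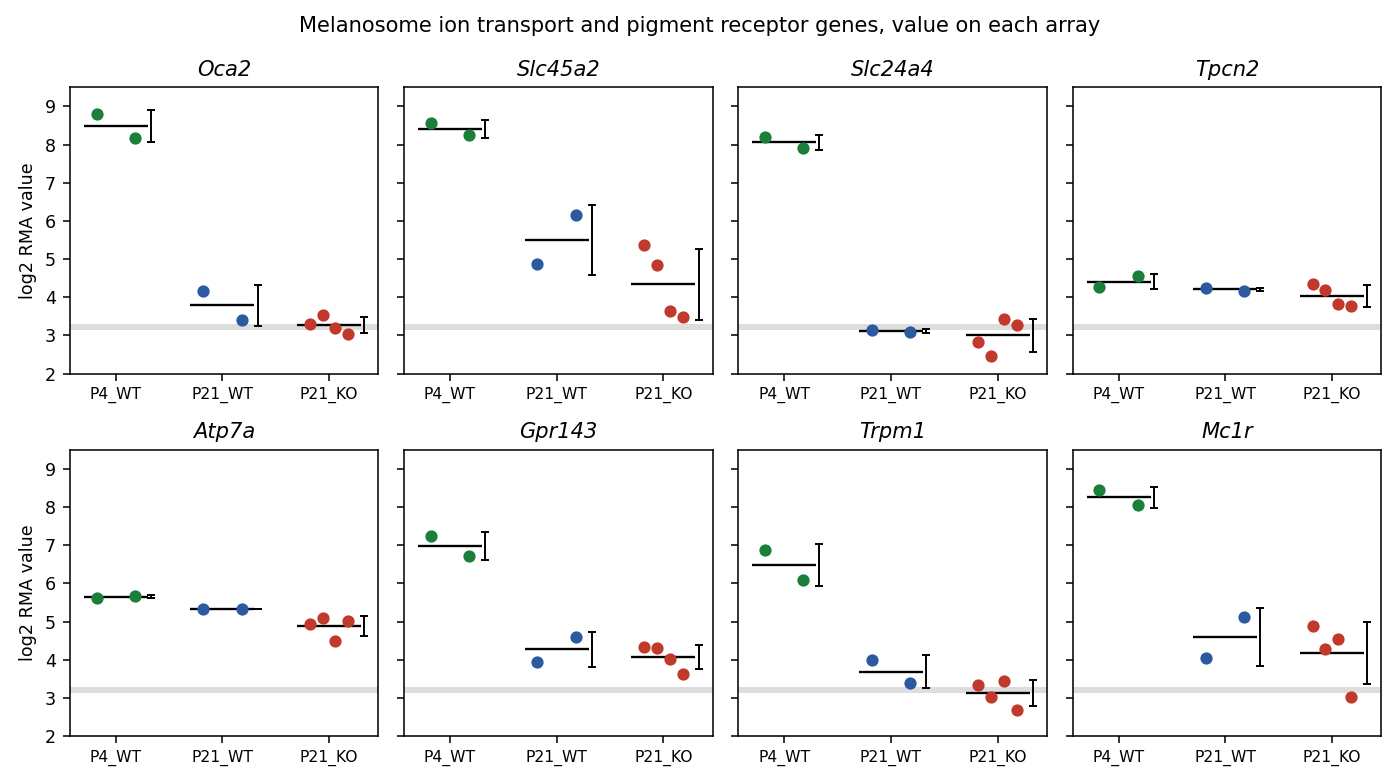
Log2 RMA value of each gene (vertical axis) on each array, by group (horizontal axis). Points are arrays, bars are group means, error bars are the SD, and the grey band spans the array medians of 3.16 to 3.27. Values of 7 genes, Tpcn2 being the exception, are higher on both P4_WT arrays than on any P21 array. At P21, Slc24a4, Oca2 and Trpm1 have arrays within or below the band, most values of Slc45a2 and Mc1r lie above it, and Tpcn2 and Atp7a stay within narrow ranges at all ages.

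Among the carriers, Oca2, the gene of the pink-eyed dilution locus, encodes a melanosome membrane protein that keeps the organelle's pH permissive for tyrosinase. Oca2 read 8.79 and 8.18 on the P4_WT arrays, 4.16 and 3.41 on the P21_WT arrays, and 3.31, 3.53, 3.20 and 3.05 on the P21_KO arrays. Both melanoblast arrays were thus far above all 6 others, and 2 of the P21_KO arrays were below the array's median. The change from P4_WT to P21_WT was -4.70 ± 0.30 (SE), and limma's adjusted p was 0.000863. Slc24a4 encodes a sodium, calcium and potassium exchanger of the family to which the melanosome gene Slc24a5 also belongs. Slc24a4 read 8.20 and 7.92 in P4_WT, 3.15 and 3.08 in P21_WT, and 2.83, 2.47, 3.44 and 3.27 in P21_KO. It was below the array's median on both P21_WT arrays and on 2 of the P21_KO arrays, so the signal there was in the range where the size of a change is not well measured. Its change from P4_WT to P21_WT was -4.95 ± 0.31 (SE; limma adjusted p = 0.000863). The calls for Oca2 and Slc24a4 held in all 19 alternative fits, with changes of -5.07 to -4.32 and -5.09 to -4.80.

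Slc45a2, the gene of the underwhite locus, encodes a melanosome transporter thought to carry protons with sugar. Slc45a2 read 8.57 and 8.24 in P4_WT, 4.86 and 6.15 in P21_WT, and 5.38, 4.85, 3.65 and 3.47 in P21_KO. All P21 arrays lay below both P4_WT arrays, but the SD of 0.91 in P21_WT (n = 2) and of 0.93 in P21_KO (n = 4) was wider than for any other of the 8 genes in these groups. The change from P4_WT to P21_WT was -2.90 ± 0.66 (SE; 95% confidence interval -4.41 to -1.38) and did not pass (limma adjusted p = 0.0829). With dim genes left out, so that fewer genes were tested, the same change had an adjusted p of 0.0428.

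Atp7a and Tpcn2 stood apart from these. Atp7a, an X-linked gene, encodes the copper pump that supplies tyrosinase with its metal. Atp7a read 5.62 and 5.68 in P4_WT, 5.33 and 5.34 in P21_WT, and 4.94, 5.10, 4.49 and 5.02 in P21_KO. The groups did not overlap, but the steps were small: the change from P4_WT to P21_WT was -0.31 ± 0.22 (SE; 95% confidence interval -0.81 to 0.18; limma adjusted p = 0.655). Tpcn2 encodes a cation channel of endolysosomes and melanosomes that makes the lumen more acidic when it is active. Tpcn2 read 4.27 and 4.55 in P4_WT, 4.24 and 4.17 in P21_WT, and 4.34, 4.19, 3.82 and 3.78 in P21_KO. Its change from P4_WT to P21_WT was -0.21 ± 0.23 (SE; 95% confidence interval -0.73 to 0.32; limma adjusted p = 0.824). Falls as large as those of the 5 called genes lie outside both intervals. The difference between these genes and the others was not tested.

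Of the receptors and channels with a signalling role, Mc1r encodes the melanocortin receptor of melanocytes. Mc1r read 8.45 and 8.06 in P4_WT, 4.05 and 5.13 in P21_WT, and 4.88, 4.28, 4.55 and 3.02 in P21_KO. The P21 arrays overlapped across genotype and all lay well below the melanoblasts. The change from P4_WT to P21_WT was -3.66 ± 0.58 (SE), 12.7-fold, with a limma adjusted p of 0.0234. That call was lost when either wild-type array of either age was left out: the adjusted p was 0.0902 and 0.0718 without P4_WT replicates 1 and 2, and 0.137 and 0.0579 without P21_WT replicates 1 and 2. The change itself stayed between -4.20 and -3.13.

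Gpr143, an X-linked gene, encodes a receptor that resides in the melanosome membrane, and its loss causes ocular albinism with giant melanosomes. Gpr143 read 7.25 and 6.72 in P4_WT, 3.95 and 4.60 in P21_WT, and 4.34, 4.30, 4.03 and 3.64 in P21_KO. The change from P4_WT to P21_WT was -2.71 ± 0.32 (SE; limma adjusted p = 0.00706). Its call held whichever array was left out. P4_WT replicate 2 was the 1 array with high Xist, the RNA of the inactive X chromosome, at 8.94 against 1.95 to 2.77 on the others. The Y-linked Eif2s3y read 1.94 there and 6.92 to 7.87 on the others. By these genes P4_WT replicate 2 came from female tissue and the other arrays from male tissue. The part of sex in the changes was not tested. The X-linked Atp7a differed by little between the P4_WT arrays, and Gpr143 was lower in replicate 2, as were 6 of the 8 genes in all. Replicate 1 was above replicate 2 for 48.4% of all genes.

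Trpm1, melastatin, encodes a cation channel whose expression is known to be low in invasive melanoma. Trpm1 read 6.87 and 6.09 in P4_WT, 3.99 and 3.39 in P21_WT, and 3.35, 3.03, 3.45 and 2.68 in P21_KO. The change from P4_WT to P21_WT was -2.79 ± 0.35 (SE; limma adjusted p = 0.00957). Without P21_WT replicate 2 the change was -2.49 and the adjusted p 0.0638. The table also held a probe set for Mir211, whose hairpin lies within Trpm1. Mir211 read 4.57 and 3.67 in P4_WT, 2.42 and 2.79 in P21_WT, and 2.63, 2.44, 2.50 and 2.62 in P21_KO. It was above the array's median only on the P4_WT arrays. The change from P4_WT to P21_WT was -1.52 ± 0.28 (SE; limma adjusted p = 0.0422), but the call was lost in 9 of 19 alternative fits. It was -1.07 without P4_WT replicate 1 (adjusted p = 0.0902) and -1.34 and -1.71 without P21_WT replicates 1 and 2 (adjusted p = 0.208 and 0.106). Leaving out any P21_KO array changed only the pooled spread and gave an adjusted p of 0.0617 to 0.0790. Whether the probes read the mature microRNA or the host transcript cannot be told from these values. Both mature products are shown because the host's fall is the finding, with the seed, bases 2 to 8, in capitals and the sequences from RefSeq on GRCm38.p6.
mmu-miR-211-5p, chr7:64205831-64205852, plus strand: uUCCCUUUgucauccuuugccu
mmu-miR-211-3p, chr7:64205868-64205888, plus strand: gCAAGGACagcaaaggggggc

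**Figure D2:**
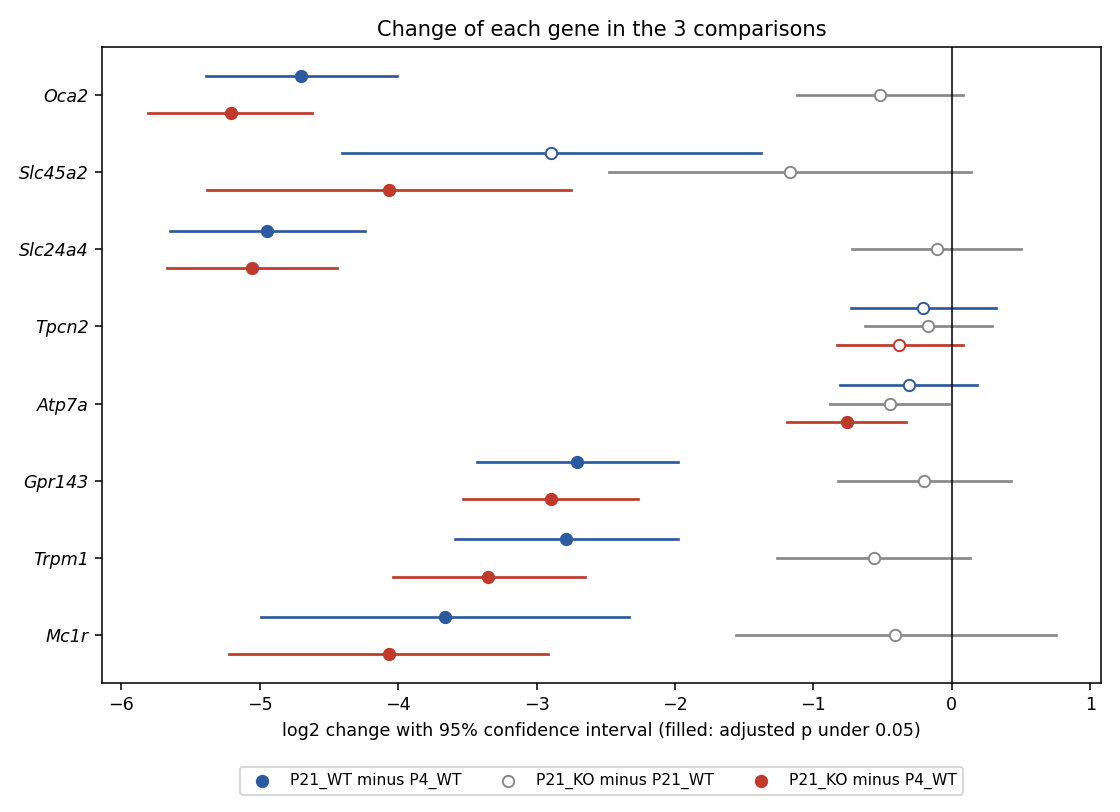
Log2 change of each gene (horizontal axis) in each of the 3 comparisons, with its 95% confidence interval from limma. Filled points passed an adjusted p of 0.05. Intervals against P4_WT lie far below 0 for 6 genes, while those of P21_KO against P21_WT lie around or just below 0.

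Upstream sequence was matched for 6 of the 8 genes. The stretches below are the 250 bases before the annotated start, from RefSeq on GRCm38.p6. They are given for the called genes Oca2, Slc24a4, Trpm1 and Mc1r and, beside them, for Tpcn2, which did not pass. Trpm1 has 2 annotated starts, of which the first is shown. The start used for Oca2 lies inside the annotated gene, which begins at chr7:56239593, so part of its stretch is within the gene. Capitals mark matches to the letters searched on both strands: TCATGTG, the M-box known for the melanocyte regulator Mitf, the E-boxes CATGTG and CACGTG, the SOX letters AACAAT and AACAAAG, and the CRE core TGACGT. The M-box contains CATGTG.
Oca2, chr7:56239509-56239758, plus strand: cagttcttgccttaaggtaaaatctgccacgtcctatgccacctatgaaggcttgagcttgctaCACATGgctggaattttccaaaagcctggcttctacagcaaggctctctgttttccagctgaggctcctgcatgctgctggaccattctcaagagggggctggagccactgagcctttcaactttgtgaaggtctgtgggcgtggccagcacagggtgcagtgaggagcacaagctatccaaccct
Slc24a4, chr12:102128477-102128726, plus strand: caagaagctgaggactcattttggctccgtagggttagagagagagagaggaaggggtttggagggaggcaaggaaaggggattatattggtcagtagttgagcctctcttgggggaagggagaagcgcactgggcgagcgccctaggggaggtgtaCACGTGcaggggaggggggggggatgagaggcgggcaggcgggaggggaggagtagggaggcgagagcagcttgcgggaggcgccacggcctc
Trpm1, chr7:64153585-64153834, plus strand: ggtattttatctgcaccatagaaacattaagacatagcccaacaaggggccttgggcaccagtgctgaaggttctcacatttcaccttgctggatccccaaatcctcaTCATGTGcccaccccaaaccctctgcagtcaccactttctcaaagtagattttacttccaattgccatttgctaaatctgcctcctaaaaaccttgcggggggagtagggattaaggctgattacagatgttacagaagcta
Mc1r, chr8:123406832-123407081, plus strand: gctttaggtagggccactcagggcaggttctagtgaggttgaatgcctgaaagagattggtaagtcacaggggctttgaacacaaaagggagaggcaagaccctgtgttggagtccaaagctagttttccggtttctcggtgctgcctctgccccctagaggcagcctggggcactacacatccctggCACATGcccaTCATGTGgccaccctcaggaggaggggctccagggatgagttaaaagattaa
Tpcn2, chr7:145284012-145284261, minus strand: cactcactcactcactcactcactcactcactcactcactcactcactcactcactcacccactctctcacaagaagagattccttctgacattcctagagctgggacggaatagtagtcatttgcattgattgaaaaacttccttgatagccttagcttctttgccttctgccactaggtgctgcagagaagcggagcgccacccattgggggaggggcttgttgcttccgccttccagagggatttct

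The M-box was found upstream of Mc1r, at bases 52 to 46 before the start, and upstream of the first Trpm1 start, at bases 142 to 136. It was in 3.25% of the 32851 upstream windows of the same length. Mc1r held another CATGTG at bases 62 to 57, on the opposite strand. Oca2 held CATGTG on the opposite strand at bases 186 to 181, letters that 12.3% of windows held. CACGTG, in 6.02% of windows, was found for Slc24a4 (bases 93 to 88), for the second Trpm1 start (229 to 224) and for Atp7a (87 to 82). In Atp7a it overlapped the CRE core at bases 83 to 78, which 6.47% of windows held. The SOX letters (9.42% and 5.03% of windows) were in none of these windows, and Tpcn2 held none of the letters searched. These are matches of letters, with no measure of binding.

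The genes next to the 8 on the chromosome were read in the same fit. Of 17 measured neighbouring or overlapping protein-coding genes, 0 were called between P21_WT and P4_WT, and their median change was -0.14. Between P21_KO and P4_WT limma called 3 of the 17, where it called 7.73% of all genes. Cpsf2 (-1.43, limma adjusted p = 0.00862) and Ccnd1 (-1.85, limma adjusted p = 0.0110) were lower. Klf13, a transcription factor gene, was higher (1.30, limma adjusted p = 0.00512). These are the nearest measured genes and are not close: Cpsf2 lay 122.7 kb from Slc24a4, Ccnd1 241.8 kb from Tpcn2 and Klf13 214.9 kb from Trpm1. Of the 17, 12 had lower and 5 higher means in P21_WT. Cpsf2, an mRNA cleavage factor gene next to Slc24a4, changed by -1.32 (limma adjusted p = 0.0558), and Ccnd1, the cyclin D1 gene next to Tpcn2, by -1.40 (limma adjusted p = 0.124). Tpcn2 itself changed by -0.21. Herc2, next to Oca2, changed by -0.01. Gabrg3, Amacr, Smim38, Tlr13 and Usp51 read below the array's median on all 8 arrays, so a fall could not be measured for them. Tubb3, a neuronal tubulin gene next to Mc1r, read 4.52 and 5.44 in P4_WT, 4.68 and 3.87 in P21_WT, and 6.75, 4.72, 4.57 and 4.71 in P21_KO. Its highest array was thus P21_KO replicate 1, unlike Mc1r, whose highest were the P4_WT arrays. The change of Tubb3 was -0.71 (limma adjusted p = 0.794).

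**Figure D3:**
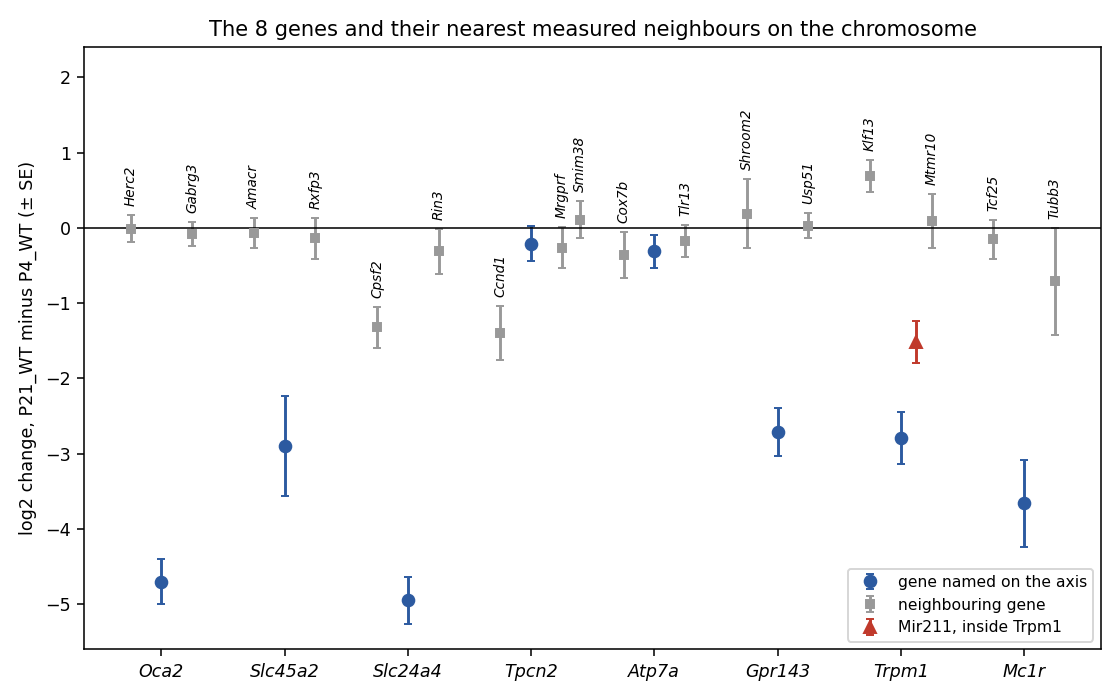
Log2 change from P4_WT to P21_WT (vertical axis, ± SE) of each of the 8 genes (circles), of the nearest measured genes on either side or overlapping it (squares, named) and of Mir211 (triangle). The neighbours lie between -1.40 and 0.69, above the 6 genes that changed by -2.71 or more in size.

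Related genes were counted in the same fit. Of 19 measured carriers and channels of melanosomes and lysosomes, 0 passed between P21_WT and P4_WT, with a median of -0.09. Slc7a11, the cystine carrier gene of the subtle gray coat, had the smallest p of them. Slc7a11 read 5.58 and 3.39 in P4_WT and 2.19 and 1.91 in P21_WT (change -2.43 ± 0.57 SE; limma adjusted p = 0.0900). It was below the array's median on all P21 arrays. Of 12 genes of copper handling 0 passed, with a median of -0.17. The smallest p was that of Cox17, a copper chaperone gene (-0.54 ± 0.20 SE; limma adjusted p = 0.282).

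Of 21 ligands and signal chain genes of Mc1r, 1 passed: Prkaca, a catalytic subunit gene of protein kinase A, was lower by 0.91 on the log2 scale. Its values were 8.38 and 8.56 in P4_WT and 7.53 and 7.58 in P21_WT (change -0.91 ± 0.17 SE; limma adjusted p = 0.0473). The call was lost in 15 of 19 alternative fits, among them those without any 1 of the 8 arrays (adjusted p = 0.0591 to 0.192). Pomc, the gene of the Mc1r agonist, read below the array's median on all 8 arrays, at 1.96 to 2.55. Of 20 family paralogs, 1 passed, and it moved the other way from Trpm1. Trpm3, a channel gene of the same family, read 3.98 and 4.20 in P4_WT, 5.70 and 5.79 in P21_WT, and 6.20, 5.10, 5.66 and 5.56 in P21_KO. Its change from P4_WT to P21_WT was 1.65 ± 0.31 (SE; limma adjusted p = 0.0444). That call was lost in 10 of 19 alternative fits, among them those without any 1 wild-type array (adjusted p = 0.114 to 0.175) and without P21_KO replicate 3 (0.0834) or 4 (0.0651). Over the 19 fits the change ran from 1.54 to 1.77. These related lists were drawn up with earlier results known, and the difference between them and the 8 genes was not tested. Probe sets shared with another gene, that of Slc24a5 among them, were not used here.

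Melanosome products were described in the same way. The 6 genes for melanin enzymes and matrix had a median change of -0.98 from P4_WT to P21_WT, with 0 called. Tyr, which encodes tyrosinase, changed by -1.94 (limma adjusted p = 0.0636), Pmel by -1.05 and Dct by -0.30. From P21_WT to P21_KO the same 6 genes had a median change of -1.56, against -0.43 for the 8 genes, and again 0 were called. Neither difference between the sets was tested. Of the 8 lineage regulators, 1 was called lower from P4_WT to P21_WT: Lef1, which encodes a nuclear effector of Wnt signals, changed by -2.43 (limma adjusted p = 0.00460). The median of the 8 regulators was -0.53 there and -0.78 from P21_WT to P21_KO, where 0 were called. Mitf changed by -0.30 and -0.78 in these comparisons, Sox10 by 0.73 and 0.07, and Kit by -0.76 and -0.95, none of these past the threshold.

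**Figure D4:**
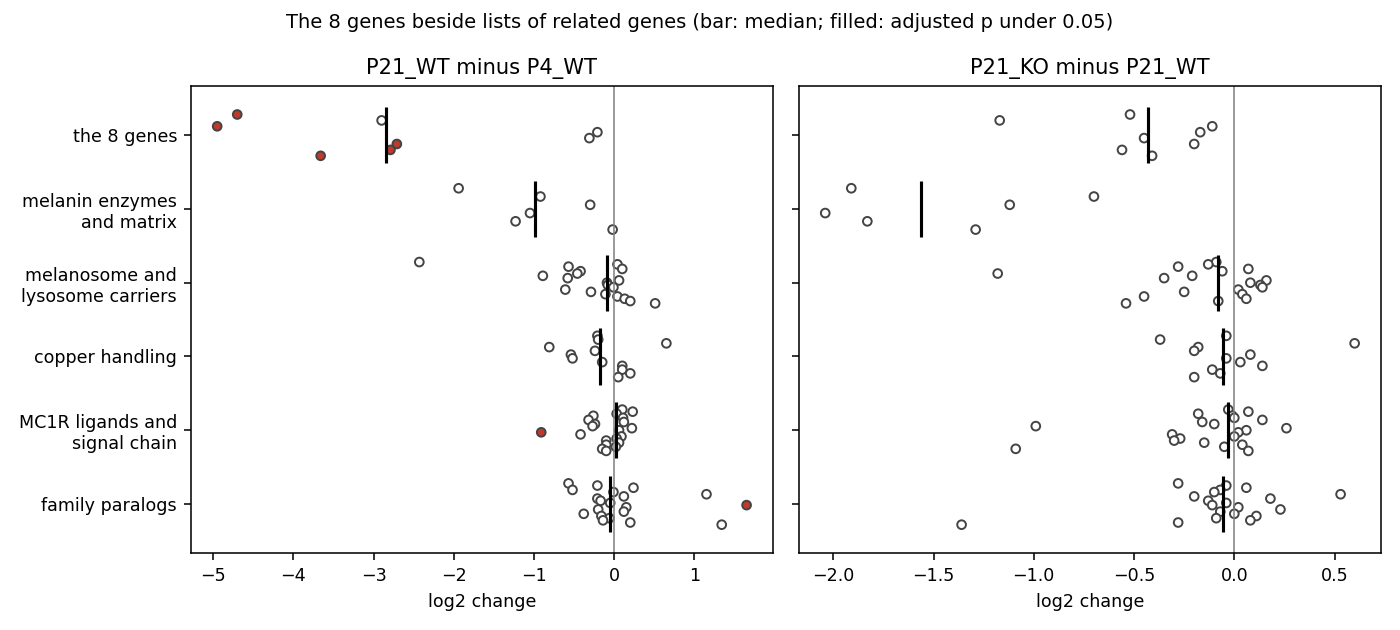
Log2 change of every measured gene (horizontal axis) in each list (rows) for P21_WT minus P4_WT and P21_KO minus P21_WT, with bars at the list medians. Filled points passed an adjusted p of 0.05, and the panels differ in scale. In the left panel 5 of the 8 genes passed, against 2 of the related genes, and in the right panel 0 genes passed.

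The comparison of P21_KO with P21_WT asks which genes of the stem cells differ when Cre can recombine B-raf and C-raf. None of the 8 genes passed, and limma called 0% of all 22180 genes. Without adjustment, limma's p was under 0.05 for 1447 genes, 818 of them lower, and Atp7a was the only one of the 8 genes among them. All 8 mean values were lower in P21_KO, by 0.11 to 1.17, with a median of -0.43 against 0.01 for all genes. The order P4_WT, P21_WT, P21_KO from high to low held for 8 of 8 genes and for 21.3% of all genes. P21_WT enters both steps of that order.

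Slc45a2 had the largest difference between genotypes, -1.17 ± 0.57 (SE; 95% confidence interval -2.48 to 0.14; limma adjusted p = 0.814). It was -1.81 without P21_WT replicate 1 and -0.52 without P21_WT replicate 2. The same arrays moved Oca2 to -0.14 and -0.89 and Trpm1 to -0.26 and -0.86, in that order. Trpm1 differed by -0.56 (95% confidence interval -1.26 to 0.13), Oca2 by -0.52 (-1.12 to 0.08) and Atp7a by -0.45 (-0.88 to -0.02). Atp7a was the only one of the 8 whose P21_KO arrays all lay below both P21_WT arrays, a separation that 7.64% of all genes showed in the lower and 7.75% in the higher direction. Mc1r differed by -0.41 (-1.56 to 0.75), Gpr143 by -0.20 (-0.82 to 0.43), Tpcn2 by -0.17 (-0.63 to 0.29) and Slc24a4 by -0.11 (-0.72 to 0.50). The intervals of Slc45a2, Mc1r, Trpm1 and Oca2 include falls of more than 1 log2 unit, so these arrays do not exclude a loss of that size for them. It was also -0.94 for Mc1r and -0.52 for Gpr143 without P21_WT replicate 1. The sign was turned for Mc1r and Gpr143 without P21_WT replicate 2 (both 0.13) and for Slc24a4 without P21_KO replicate 2 (0.07).

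P21_KO arrays differed among themselves. Replicate 4 had the lowest value of all 8 arrays for 6 of the 8 genes, Oca2, Slc45a2, Tpcn2, Gpr143, Trpm1 and Mc1r. That was the case for 14.7% of all genes. The mean of the 8 genes was 4.17, 3.97, 3.83 and 3.49 on P21_KO replicates 1 to 4, against 4.22 and 4.41 on the P21_WT arrays. On the same P21_KO arrays the mean of the 8 lineage regulators was 7.72, 7.48, 7.13 and 6.65, and that of the 14 keratinocyte genes 6.87, 6.77, 6.90 and 7.56. The part of these lists in the genotype values was not tested.

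Setting P21_KO against P4_WT gives the change across age, the cells named by the labels and genotype together. Of the 8 genes, 7 were called lower, where limma called 7.73% of all genes, 4.68% lower and 3.05% higher. The same 7 did not overlap between the groups, as was the case for 15.5% of all genes in the lower and 14.2% in the higher direction. The change was -5.21 ± 0.26 (SE) for Oca2, -5.06 ± 0.27 for Slc24a4, -4.07 ± 0.57 for Slc45a2, -4.07 ± 0.50 for Mc1r, -3.35 ± 0.30 for Trpm1 and -2.90 ± 0.27 for Gpr143. Limma's adjusted p for these 6 genes lay between 8.35e-05 and 0.00508, and their calls held in all 19 alternative fits. Atp7a passed narrowly at -0.76 ± 0.19 (SE; limma adjusted p = 0.0465). Its call was lost whichever of the 8 arrays was left out, with adjusted p of 0.0527 to 0.199. Tpcn2 did not pass (-0.38 ± 0.20 SE; limma adjusted p = 0.348). This comparison shares arrays with both others, so its values are not further evidence for them.

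Of the 70 measured related genes, 10 passed between P21_KO and P4_WT. Among carriers and channels 4 of 19 were called, all lower: Slc7a11 (-2.51), Mcoln3 (-1.64), the chloride transporter gene Clcn7 (-1.09) and its partner Ostm1 (-0.94). Slc7a11 changed by -1.42 without P4_WT replicate 1 and by -3.61 without P4_WT replicate 2, called in both. Mcoln3, whose mutation gives the varitint-waddler coat, read 9.17 and 9.31 in P4_WT, 8.95 and 8.60 in P21_WT, and 8.37, 7.87, 7.40 and 6.77 in P21_KO. Its P21_KO arrays all lay below the wild-type arrays, and its change between genotypes was -1.18 (limma adjusted p = 0.635). Of the 70 related genes, 5 had all P21_KO arrays below both P21_WT arrays and 1 had all above. Among all genes these shares were 7.64% and 7.75%. The copper transporter gene Slc31a2 rose by 1.25 (limma adjusted p = 0.0201), the 1 called of 12 in copper handling. In the Mc1r signal chain Prkaca (-0.89), the adenylate cyclase gene Adcy2 (-1.26) and the coactivator gene Ppargc1a (-1.24) were lower. Between genotypes Adcy2 changed by -0.99 and Ppargc1a by -1.09, also without overlap (limma adjusted p = 0.565 for each). Among paralogs Trpm3 (1.54) and the mitochondrial exchanger gene Slc8b1 (1.69) were higher. Mir211 was lower by 1.58 on the log2 scale (change -1.58; limma adjusted p = 0.00756). Of these calls, those of Mcoln3 and Clcn7 were lost in 8 of 19 alternative fits, that of Slc8b1 in 11 and that of Ostm1 in 13, and the others in 1 to 4. Both P4_WT arrays bear on most of them. Without P4_WT replicate 1 the adjusted p was 0.142 for Mcoln3, 0.230 for Clcn7, 0.267 for Ostm1, 0.143 for Adcy2, 0.105 for Ppargc1a, 0.253 for Slc8b1 and 0.0838 for Trpm3. Without P4_WT replicate 2 it was 0.177 for Mcoln3, 0.104 for Ostm1, 0.117 for Slc31a2, 0.0799 for Adcy2, 0.0772 for Prkaca, 0.142 for Ppargc1a, 0.121 for Slc8b1 and 0.0550 for Trpm3. Single P21 arrays ended the calls of Mcoln3 (either P21_WT array or P21_KO replicate 2 or 3), Clcn7 (either P21_WT array or P21_KO replicate 2, 3 or 4), Ostm1 (any P21_KO array), Slc8b1 (either P21_WT array or P21_KO replicate 1, 2 or 3), Ppargc1a (P21_KO replicate 2) and Slc31a2 (P21_KO replicate 3), with adjusted p between 0.0529 and 0.104.

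For the 6 genes whose values spread over the 8 arrays with an SD of at least 1, the genes of most similar profile were sought by the root mean square difference of log2 values, each gene centred on its own mean. The 8 genes themselves were left out of the search, as were small RNAs, immune receptor segments, gene models without a name, and receptor genes of the olfactory and vomeronasal families. Among the genes searched, the 3 nearest to Oca2 were Rrm2 (0.51), Slc7a8 (0.52) and Krt25 (0.61), and those nearest to Mc1r were Slc7a8 (0.48), Ccnb2 (0.57) and Lef1 (0.58). The nearest to Slc45a2 were Top2a (0.48), Slc38a1 (0.50) and Lef1 (0.54). Slc24a4 had Gap43 (0.58), Ecrg4 (0.67) and Birc5 (0.67), Gpr143 had Lypd6 (0.23), Dbf4 (0.25) and Depdc1a (0.30), and Trpm1 had Flrt2 (0.25), Smc2 (0.33) and Cdk1 (0.35). Among the 8 genes, Oca2 and Slc24a4 differed by 0.46, less than either did from any gene searched. Slc45a2 and Mc1r differed by 0.55, and Gpr143 and Trpm1 by 0.42. All these profiles share the step between the P4_WT and the P21 arrays, which dominates the measure over 8 arrays. Genes of cell division took that step too: the mean of 11 cell cycle genes was 6.49 and 6.74 in P4_WT, 4.14 and 4.24 in P21_WT, and 3.71 to 4.01 in P21_KO. Dissociation and immediate early genes moved the other way, from 7.05 and 7.55 in P4_WT to 8.66 to 9.18 on the P21 arrays. The part of either list in the values of the 8 genes was not tested.

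**Figure D5:**
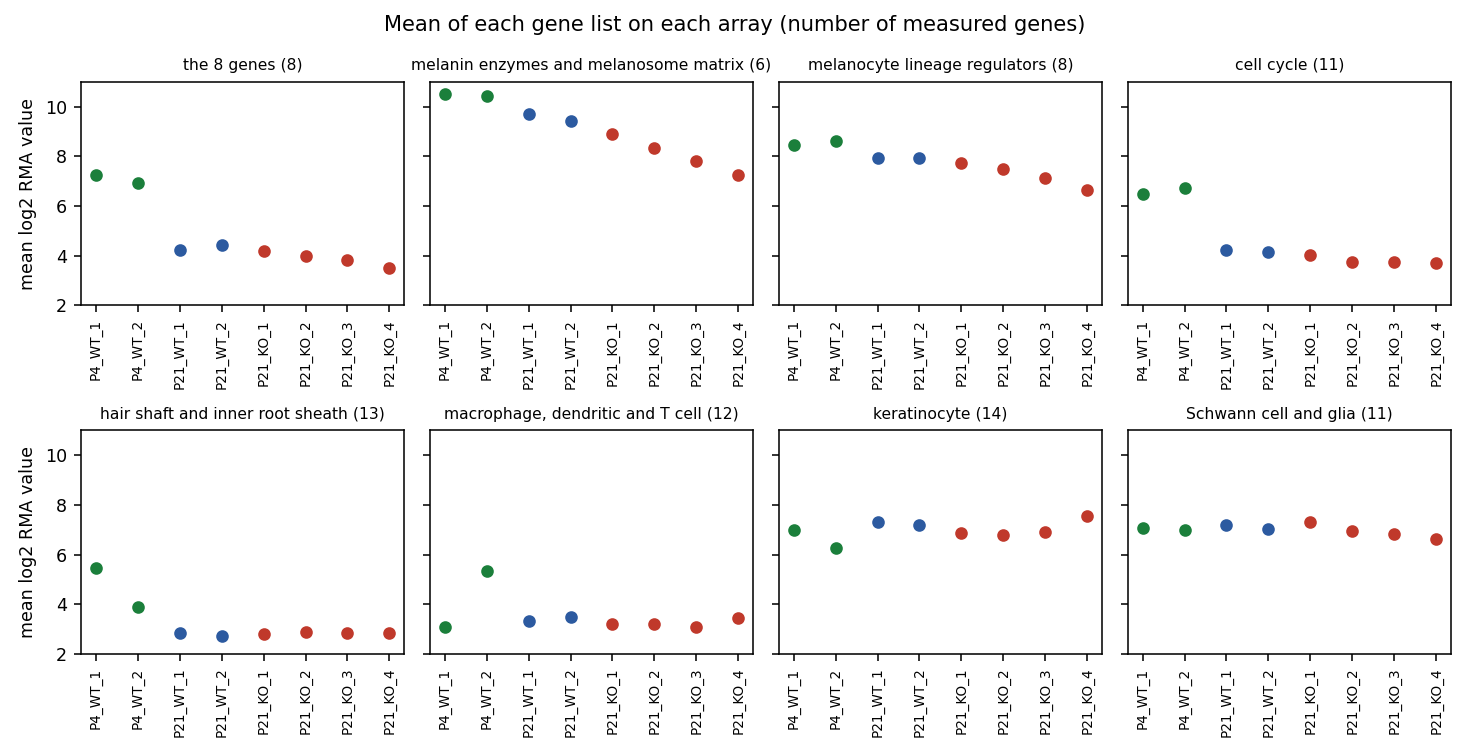
Mean log2 RMA value (vertical axis) of each gene list on each array (horizontal axis), coloured by group, with the number of measured genes in the titles. The 8 genes and the cell cycle genes step down between the P4_WT and P21 arrays. Melanin enzymes go from 10.51 and 10.42 in P4_WT through 9.68 and 9.43 in P21_WT to 7.23 in P21_KO replicate 4, their lowest array, and lineage regulators reach their lowest value, 6.65, on the same array.

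The markers that separated the P4_WT arrays can be set beside the falls from P4_WT to P21_WT. Without P4_WT replicate 1, the array with more hair shaft signal, the median change of the 8 genes was -2.59. Without P4_WT replicate 2, the array with high Xist and more immune, mast cell and endothelial signal, it was -3.12. In both fits Oca2, Slc24a4, Gpr143 and Trpm1 were called, and Mc1r was not.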

How the data were processed

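The log2 values per probe set are as the authors deposited them. The submitters' processing notes name RMA and Affymetrix Expression Console, while versions and a genome build were not given in the sources used here. Cells were sorted, and their RNA amplified before labelling, per the labels' protocols. Of 41345 probe sets, 23521 had 1 gene symbol, 1814 several and 16010 were unnamed here. The probe set of highest mean was kept per gene, leaving 22180 genes.

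In R 4.3.3, limma 3.58.1 fitted the means of the 3 groups over the 8 arrays (functions lmFit and eBayes), which leaves 5 residual degrees of freedom. P-values are two-sided and Benjamini-Hochberg adjusted over all genes, and genes were called under 0.05. Scripts were tested on simulated data. The number of arrays limits the precision.

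The members and lists were chosen with earlier results of these data known. Named beside the members are the called related genes (up to 4 per list, otherwise the smallest p), 10 lineage, pigment and ligand genes, chromosome neighbours, and the 3 genes nearest in profile to each member with an SD of at least 1. Alternatives are given at the end, and those for related genes were added after seeing their calls. Arrays of different groups with the same replicate number did not deviate together (correlations -0.04 to 0.01). The P21_KO arrays whose labels share a number were not compared in this way.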

Additional observations from a re-analysis of the deposited data

How the results depend on the processing

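The members were fitted under 19 alternatives and their counts under 21. In the age comparison the count of 5 called genes became 2 with only the 2 groups compared and 3 with the replicate number as a block, and 3 to 5 when single arrays were left out. Called related genes numbered 2, and 0 with only the 2 groups, with a trended robust prior, with the replicate block and at a 1.5-fold minimum. They were 1 after quantile normalization, subtraction of the array median, cyclic loess and averaging of probe sets, and 0 to 1 without single arrays. The median change of the 8 genes was -3.29 to -2.59 without single arrays. All genes called fell from 357 to 49 with only the 2 groups, 45 with the block, 84 at 1.5-fold and 119 without P21_WT replicate 2, and rose to 674 at an adjusted p under 0.10.

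Between P21_KO and P21_WT 0 of the 8 genes were called under any alternative, 0 to 1 related genes and 0 to 15 genes in all without single arrays (15 without P21_WT replicate 2). The replicate block turned the sign of Tpcn2 (0.06) and Gpr143 (0.05). Without single arrays the change ran from -0.52 to 0.13 for Gpr143, from -0.94 to 0.13 for Mc1r and from -0.26 to 0.07 for Slc24a4.

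Between P21_KO and P4_WT 6 to 7 of the 8 genes were called throughout. The median was -3.29 with the replicate block and -3.98 to -3.42 without single arrays. Related genes called went from 10 to 1 with the block, 0 at 1.5-fold and 2 to 9 without single arrays. All genes called went from 1715 to 463 with the block, 397 at 1.5-fold and 921 to 1529 without single arrays. A stricter minimum gives fewer calls by construction. For the other differences between fits the cause was not tested. The replicate numbers do not pair these animals. Low signal limits what can be measured for Slc24a4, Oca2 and Trpm1 at P21. The background correction and array batches were not varied, since scanner values and dates were not used here.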
